A study of Caenorhabditis elegans with 3 samples.

Results

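The 301 regions described here are autosomal distal intergenic candidate regions for GFP-tagged Y5F2A.4 in L4 larvae of Caenorhabditis elegans. They come from chromatin immunoprecipitation and sequencing. The deposited label of the candidate list reads peaks and background, so a member is not by itself a bound site. The authors' thresholded list of reproducibly ranked regions held 48 of the 301. The members were chosen by measured signal and by place. From the candidate regions called on both replicates together, mitochondrial ones were dropped and the 2500 with the highest signal value were kept of 28426. Of these, 386 lay on the X chromosome and 274 were autosomal with a gene for a tRNA, snoRNA or snRNA no more than 200 bp from the summit, and both sets were removed. The remaining 1840 autosomal summits fell into 1186 in the body of a protein-coding gene, 353 within 1000 bp upstream of a protein-coding 5' end, and the 301 that were in neither place, which are 16.4% of the 1840. The signal value is the authors' own score per region and has no unit, so it ranks regions within a list only.

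The study used 1 strain, OP682, a single line with the allele unc-119(tm4063) and the integrated transgene wgIs682. That transgene holds Y5F2A.4::TY1::EGFP::3xFLAG and also unc-119(+), a working copy that rescues the host mutation. Worms of mixed sex were starved as L1 larvae after bleaching and collected as L4 larvae at 48 hours, whole, and chromatin was sonicated to 200 to 800 bp before recovery with anti-GFP. There were 3 libraries from 2 biological replicates, because replicate 1 had 2 technical libraries that share 1 alignment, and there was no second condition. Sequencing depth is unknown here. All results below are therefore descriptions of places and sequences with no test between groups, and the intervals given with shares are 95% Clopper-Pearson intervals that cover counting error only.

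C2H2 zinc finger proteins, the class to which Y5F2A.4 is annotated, are often sequence-specific DNA-binding proteins in which each finger contacts a few neighbouring bases. The worm genome is compact, and most of its regulatory DNA lies just upstream of genes. Of the autosomal bases that meet the place rule of the members, 53.5% lie between genes in tandem. A further 28.8% lie between diverging 5' ends and 17.6% between converging 3' ends, and 41.3% of the bases are marked as repeat. RNA polymerase II continues past the end of a gene after the transcript is cut. tRNA genes and related repeats are transcribed by RNA polymerase III, whose promoter lies inside the gene and consists of an A box and a B box.

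Sequences are shown for members that carry the main patterns, taken from the WBcel235 assembly, which has the same coordinates as ce11. The first 3 lie just downstream of protein-coding 3' ends, the next 4 lie far from any 3' end, and the last is a repeat. Capitals mark words found by search on either strand, namely the B box form GTTCGANNC, the splice acceptor form TTTTCAG, the GA run GAGAGA with its longer form GAGAGAGA, and the word GACGCAG. A match is a description of the letters and not a bound site.
alh-3 and mir-51 region, chrIV:11026136-11026236, plus strand: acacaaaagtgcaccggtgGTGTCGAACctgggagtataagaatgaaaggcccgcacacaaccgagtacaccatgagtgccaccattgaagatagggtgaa
hsp-1 region, chrIV:17281335-17281435, plus strand: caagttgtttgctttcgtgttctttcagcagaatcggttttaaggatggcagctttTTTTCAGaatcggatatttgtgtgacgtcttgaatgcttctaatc
rpl-7A region, chrIV:4388977-4389077, plus strand: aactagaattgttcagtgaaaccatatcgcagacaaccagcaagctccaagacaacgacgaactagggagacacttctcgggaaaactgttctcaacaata
T04C4.3 region, chrIV:2219530-2219630, plus strand: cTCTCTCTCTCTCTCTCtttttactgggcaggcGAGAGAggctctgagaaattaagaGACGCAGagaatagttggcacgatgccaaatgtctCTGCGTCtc
hif-1 region, chrV:20778332-20778432, plus strand: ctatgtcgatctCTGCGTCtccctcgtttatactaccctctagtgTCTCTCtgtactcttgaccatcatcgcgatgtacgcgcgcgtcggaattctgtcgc
nhr-88 region, chrII:2974000-2974100, plus strand: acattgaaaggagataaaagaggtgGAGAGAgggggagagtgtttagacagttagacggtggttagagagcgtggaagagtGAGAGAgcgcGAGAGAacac
cmd-1 region, chrV:1151465-1151565, plus strand: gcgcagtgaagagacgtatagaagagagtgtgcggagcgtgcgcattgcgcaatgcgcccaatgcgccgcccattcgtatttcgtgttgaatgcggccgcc
T28H10.2 region, chrV:12510255-12510355, plus strand: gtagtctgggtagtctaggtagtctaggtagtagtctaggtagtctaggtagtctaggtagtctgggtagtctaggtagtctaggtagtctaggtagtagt

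A further 4 members held an A box form, which is TGGCNNAG or else TGGTNNAG, followed after 20 to 70 bases by a B box form, GTTCGANNC or else GTTCAANNC, on the same strand. No annotated tRNA pseudogene lies within 200 bp of any member, and tRNA genes are absent there by the rule. They are shown on the strand that carries the boxes, with the boxes in capitals.
C14C11.7 region, chrV:5667450-5667537, minus strand: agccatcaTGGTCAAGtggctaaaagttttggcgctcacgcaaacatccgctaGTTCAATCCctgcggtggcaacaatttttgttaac
F09E5.7 region, chrII:5353799-5353886, minus strand: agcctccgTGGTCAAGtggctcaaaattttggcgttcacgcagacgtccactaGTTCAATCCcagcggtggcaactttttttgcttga
first dpy-1 region, chrIII:2030896-2030982, minus strand: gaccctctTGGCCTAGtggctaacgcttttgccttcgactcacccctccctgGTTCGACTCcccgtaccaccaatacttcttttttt
second dpy-1 region, chrIII:2031309-2031396, minus strand: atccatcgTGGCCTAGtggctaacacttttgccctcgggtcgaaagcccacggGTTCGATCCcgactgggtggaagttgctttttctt

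These tRNA-like stretches included 2 of the 3 members with the highest signal. The region 1442 bp from C14C11.7 had a signal of 126 in replicate 1 and 102 in replicate 2. The region 150 bp downstream of F09E5.7 had 112 in replicate 1 and 109.8 in replicate 2. Both were narrow as deposited, at 163 and 104 bp, where 292 of the 301 members had 1 common width of 376 bp, and both were in the thresholded list. By BLAST, the first was 87.1% identical over 62 bp, and the second 84.1% identical over 69 bp, to the same annotated tRNA pseudogene, K10B2.t1. The 2 regions beside dpy-1 lie 4046 and 3597 bp downstream of its 3' end, and each resembled the tRNA pseudogene Y22D7AR.t1, at 87.9% over 58 bp and 78.6% over 56 bp. Their signals were lower, at 66.4 and 33.0 in replicates 1 and 2 for the first and 29.7 and 36.1 for the second.

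Across all members, 9 (2.99%, interval 1.38 to 5.60) resembled an annotated tRNA gene or tRNA pseudogene at an E value of at most 1e-05, and each of the 9 best matches was a pseudogene. The best-matched was the region 3305 bp from nipa-1, at 90.9% over 55 bp, and the region 72 bp downstream of pat-4, which encodes integrin-linked kinase, had 74.6% over 71 bp. The share was 2.27% of the upstream regions, 0.843% of the gene body regions, and 1.71% of the 3799 weaker autosomal candidates in the same kind of place, so the members' interval holds the upstream and weaker values. The box arrangement was found in 5 members (1.66%), in 1.98% of upstream regions, 0.927% of gene body regions and 0.948% of weaker distal candidates, against 33.6% of the 274 regions near small RNA genes. The fifth member with the arrangement lies 1195 bp from the 5' end of zfr-1, at 67.7 in replicate 1 and 75.5 in replicate 2, and matched no annotated gene. tRNA-like sequence thus occurred at few members, and they ranged from rank 57 to rank 1759. The comparison was made after the sequences of the strongest members had been seen.

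The most frequent place among the members was the short stretch after a gene's end. Of the 301 summits, 151 (50.2%, interval 44.4 to 56.0) lay within 500 bp downstream of a protein-coding 3' end that faced them. Such stretches make up 14.7% of the 19299851 autosomal bases that meet the same place rule, and they held 869 of the 3799 weaker candidates (22.9%). There were 51.0 members per megabase in the first 100 bp past the 3' end, 76.5 in the next 100 bp, 7.20 beyond 5000 bp, and 8.80 in places that face no 3' end. Weaker candidates stood at 276, 362, 175 and 177 per megabase in the same places. By rank on the combined signal, which the rule used and which is given as a description only, the share was 67.6% (25 of 37) among the first 500 ranks, then 52.5%, 54.3% and 46.5% in the following blocks of 500 ranks, and 37.1% (23 of 62) in the last 500. The 500 bp limit was chosen after the distances were known.

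**Figure D1:**
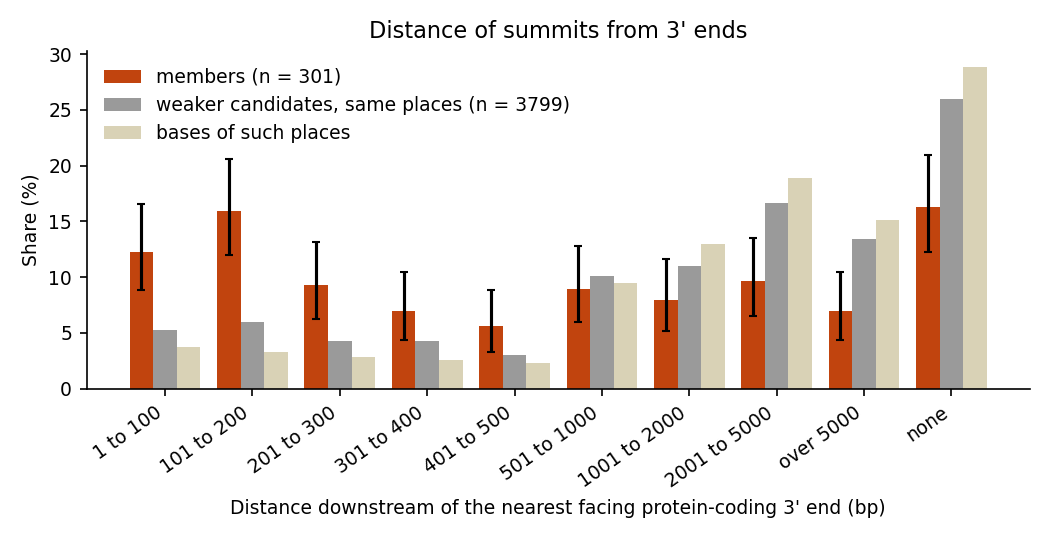
Share in percent of the 301 members (with 95% Clopper-Pearson intervals), of the 3799 weaker candidates in the same places and of the bases there, by distance in bp downstream of the nearest facing protein-coding 3' end. Members stand above the bases in each bin up to 500 bp, at most 15.9% against 3.25% between 100 and 200 bp, and below them beyond 5000 bp, at 6.98% against 15.1%, and where no 3' end faces the place (none), at 16.3% against 28.9%.

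The kind of gap is not independent of the distance to a 3' end, since divergent gaps face none. Gaps between 2 converging 3' ends held 73 members (24.3%, interval 19.5 to 29.5) and 17.6% of the bases, and gaps between 2 diverging 5' ends held 49 members (16.3%, interval 12.3 to 20.9) and 28.8% of the bases. Tandem gaps held 179 members (59.5%) and 53.5% of the bases. Of the 151 members near a 3' end, 60 were in convergent gaps and 91 in tandem gaps. They belonged to 149 different genes with a median length of 2443 bp, against 1964 bp over all autosomal protein-coding genes, and for 13 of them the gene's own 5' end was within 1000 bp.

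The genes followed by the strongest of these regions differ in function. The region 55 bp downstream of hsp-1, the constitutive Hsp70 chaperone, had 65.7 in replicate 1 and 93.1 in replicate 2. That 118 bp downstream of atp-1, the alpha subunit of mitochondrial ATP synthase, had 70.5 in replicate 1 and 85.9 in replicate 2. That 296 bp downstream of cgh-1, a DEAD-box RNA helicase of germ granules, had 52.3 in replicate 1 and 84.6 in replicate 2. The region 206 bp downstream of xbp-1, a transcription factor of the unfolded protein response, had 66.5 in replicate 1 and 84.2 in replicate 2, and that 197 bp downstream of nlp-40, which encodes a neuropeptide-like protein, had 82.8 in replicate 1 and 118 in replicate 2. The strongest of all, 316 bp downstream of alh-3, an aldehyde dehydrogenase gene, lies beside the microRNA gene mir-51 and had 97.4 in replicate 1 and 141 in replicate 2.

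Ribosomal protein genes were the family counted most often by name. They were the gene with the 3' end for 8 of the 151 members (5.30%), against 3 of 869 weaker candidates (0.345%) and 76 of the 17242 autosomal protein-coding genes (0.441%). The 8 summits lay 106 to 223 bp past the ends of rps-6, rpl-31, rps-15, rpl-7A, rps-2, rps-8, rpl-11.1 and rpl-21. The rps-6 region, at chrI:13953192-13953567, had 77.9 in replicate 1 and 82.4 in replicate 2. The rpl-31 region, at chrI:13652538-13652913, had 73.3 in replicate 1 and 74.6 in replicate 2 and also lies within 200 bp of the long non-coding RNA gene linc-1. The weakest of the 8, beside rpl-21, had 27.9 in replicate 1 and 39.0 in replicate 2, and its sequence has 112 further copies in the genome. Signal thus spanned a wide range within this family. Chemoreceptor genes, the largest gene family of the worm, were the nearest gene for 4 members (1.33%), against 3.24% of weaker candidates and 7.40% of genes. Families were read from gene symbols (for example rpl, rps, msp, his, ugt and cyp), so genes with only a sequence name were not counted. W08E3.4, annotated as a major sperm protein, is such a gene and lies 131 bp from a member. By symbol, no histone, major sperm protein, UDP-glucosyl transferase or cytochrome P450 gene was the nearest gene of any member, and a limit of 3 counts of 301 for a count of 0 allows a share of up to 0.997% each. These symbols belong to 0.394%, 0.180%, 0.365% and 0.389% of the genes, respectively.

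The other 150 members lay more than 500 bp from a facing 3' end or, for 49, in divergent gaps that face none, and they differed from the first 151 in sequence. Median G+C in the 100 bp to each side of the summit was 47.0% in these 150 and 38.8% in the 151, against 35.3% in windows 300 bp to each side of members and 38.8% in weaker candidates. Over all members it was 42.8%, close to the 42.3% of both upstream and gene body regions. G+C was over 50% in 53 of the 150 (35.3%) and in 14 of the 151 (9.27%). The most G+C-rich among the 20 strongest was the region 4756 bp from cmd-1, the calmodulin gene, with 60.2% G+C, which lies beside the long non-coding RNA gene linc-128 and had 95.2 in replicate 1 and 99.8 in replicate 2.

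**Figure D2:**
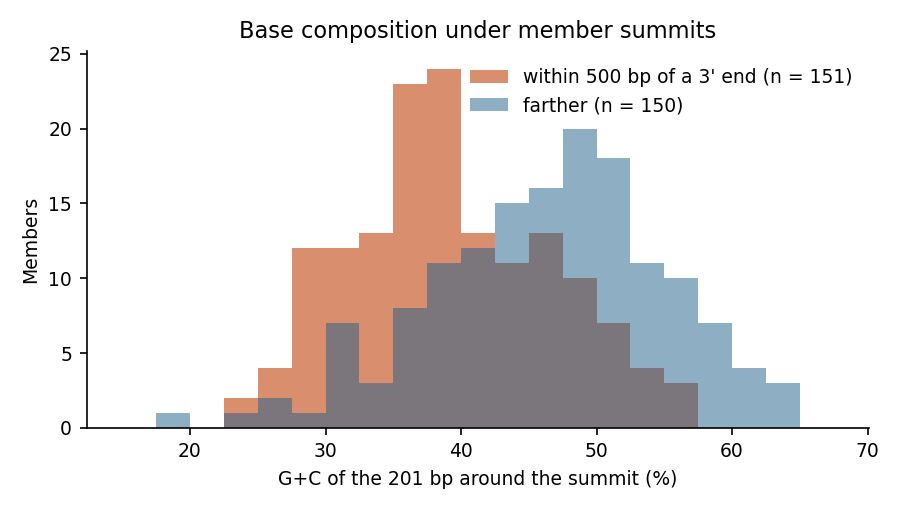
Number of members by G+C content in percent of the 100 bp to each side of the summit, for the 151 members within 500 bp downstream of a 3' end and the 150 farther away. The medians are 38.8% and 47.0%, and the distributions overlap.

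GA runs and the word GACGCAG were held more often by the members far from a 3' end than by those near one. The word GAGAGA was in 62 of the 150 (41.3%), in 26 of the 151 (17.2%), in 14.3% of the windows beside members and in 18.6% of weaker candidates. Upstream regions held it in 30.6%, close to the 29.2% of all members. The longer run GAGAGAGA, which contains it, was in 23 (15.3%), 4 (2.65%), 1.66% and 4.97% of the same groups, and in 6.23% of upstream regions against 8.97% of all members. With soft-masked bases left out, the longer run was in 6 members (1.99%) in place of 27, and GACGCAG in 23 in place of 41. GACGCAG was in 27 (18.0%), 14 (9.27%), 2.33% and 4.42%, and it was as frequent in upstream regions, at 13.3%, as in all members, at 13.6% (interval 9.96 to 18.0). Either GAGAGA or else GACGCAG was in 70 of the 150 (46.7%) and 32 of the 151 (21.2%). The strongest member with all 3 words lies 2724 bp from the 5' end of T04C4.3 and had 98.2 in replicate 1 and 120.2 in replicate 2. The hif-1 region, 2025 bp from the gene of the hypoxia-inducible factor, and the nhr-88 region, 2589 bp from a nuclear receptor gene, hold GAGAGA within 50 bp of the summit. The run of 6, the word GACGCAG and the polyadenylation word of the next paragraph were picked after the words in these windows had been counted. G+C was higher in the same members, and its part in these shares was not tested.

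A+T-rich words were rarer under the summits than beside them. The windows to the side, here and above, were not held to the place rule. Members near a 3' end lay a median of 177 bp past it, so the window toward the gene often falls inside that gene. Median G+C was 42.8% under members and 35.3% to the side, and the part of place and G+C in these shares was not tested. AATAAA, the letters of the polyadenylation signal, was in 72 members (23.9%, interval 19.2 to 29.1) and in 43.7% of windows to the side, with 34.4% among members near a 3' end and 13.3% among the rest. Upstream regions held AATAAA in 34.6% and gene body regions in 27.5%. A run of 8 A was in 50 members (16.6%) and in 25.9% of windows to the side. It was in 15.3% of upstream regions and 12.6% of gene body regions. With soft-masked bases left out, AATAAA was in 32 members, the run of 8 A in 2 and TTTTCAG in 7. ATATATAT was in 0 of 301 members and in 2.82% of windows to the side. Upstream regions held it in 0.567%, gene body regions in 1.18% and weaker candidates in 1.47%. CTGTTTCA, the upstream word of piRNA genes, was in 0 members and in 0.997% of windows to the side. It was in 0.283% of upstream regions and 1.66% of weaker candidates. By the limit of 3 counts, 0 of 301 allows a share of up to 0.997%. For CTGTTTCA no difference from the side windows or upstream regions is therefore shown, and for ATATATAT none from upstream regions. The word TGATAA, which is known from endodermal transcription factors, was in 40 members (13.3%) and in 20.6% of windows to the side. TTTTCAG was in 34 members (11.3%) and in 16.4% of windows to the side. Upstream and gene body regions held TGATAA in 14.7% and 12.1%, and TTTTCAG in 14.7% and 18.5%. Against these regions the members were lower for AATAAA and TTTTCAG, between them for TGATAA and above both for the run of 8 A. The other words searched were E2F, E box, AP-1, telomere, the A box, the B box core and further forms for endodermal factors. They were in 1.33% to 7.31% of members. The B box form GTTCGANNC was in 11 (3.65%, interval 1.84 to 6.44) against 1.33% to the side. The interval holds the 2.45% of weaker candidates, 2.55% of upstream regions and 2.36% of gene body regions. With a narrower window the members' share was 1.66%.

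**Figure D3:**
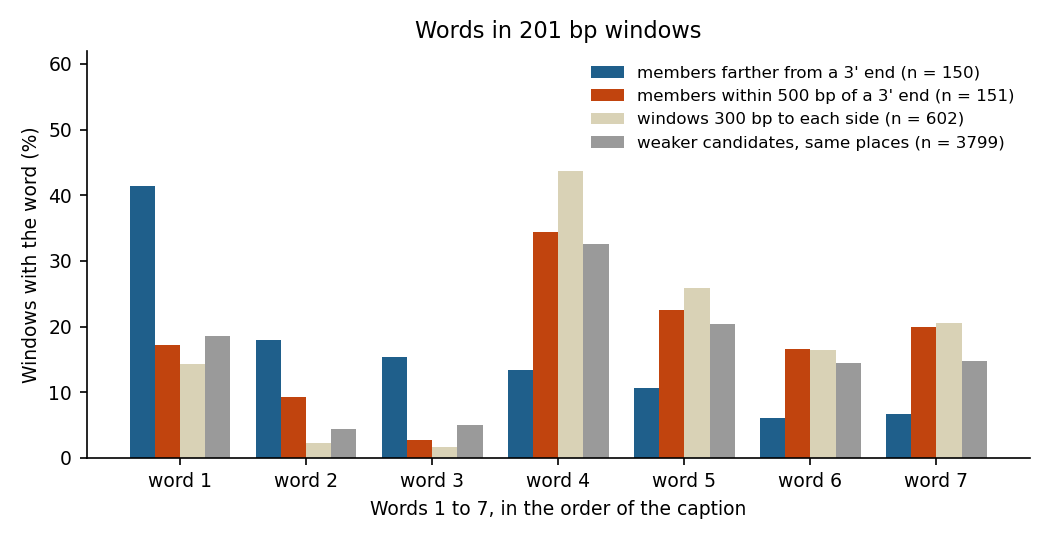
Percent of windows of 100 bp to each side of the summit with each word on either strand, for members far from and near to a 3' end, windows 300 bp to each side of members, and weaker candidates. Words 1 to 3 are the GA run of 6 letters, GACGCAG and the GA run of 8 letters, most frequent in members far from a 3' end, at 41.3%, 18.0% and 15.3%. Words 4 to 7 are the polyadenylation word, the run of 8 A, the splice acceptor word and TGATAA, least frequent there.

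Distance from genes was modest for most members. The median distance from a summit to the nearest protein-coding gene body was 497 bp, against 1512 bp for weaker candidates. There were 123 members (40.9%) beyond 1000 bp and 13 beyond 5000 bp. The farthest was chrI:2518923-2519298, 12852 bp from the 3' end of Y23H5B.5, with 26.5 in replicate 1 and 41.0 in replicate 2. The next, 10218 bp from the 5' end of zfh-2, a zinc finger homeodomain gene, had 28.2 in replicate 1 and 41.7 in replicate 2. The others of the 5 farthest lay 8238 to 8908 bp from nhr-41, irld-55 and uroc-1. The irld-55 region lies 8648 bp from that gene. It had 35.3 in replicate 1 and 83.2 in replicate 2 and was in the thresholded list. A high rank was thus not limited to regions close to protein-coding genes. Annotated ncRNA genes lie within 200 bp of the summit of the irld-55 region, so it is not far from every annotated gene.

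Repeats were under fewer summits than their share of the bases, and under more than in upstream regions and gene bodies. A soft-masked base, marked as repeat in the RefSeq sequence by a method that is not stated, lay under 82 summits (27.2%, interval 22.3 to 32.6). The share was 20.1% of upstream regions, 18.4% of gene body regions, 32.1% of weaker candidates and 41.3% of the distal bases. It was 31.8% among members near a 3' end and 22.7% among the others. A further copy elsewhere in the genome, at least 100 bp long and 90% identical, existed for 29 members (9.63%, interval 6.55 to 13.5), against 3.68% of upstream regions, 2.70% of gene body regions and 11.0% of weaker candidates. The region 356 bp from nhr-175 had the most, 480, with 40.1 in replicate 1 and 43.5 in replicate 2. The T28H10.2 region, 340 bp downstream of that gene, had 174, with 49.5 in replicate 1 and 94.1 in replicate 2, and all of its window is masked. Reads from near-identical copies may be placed at either, and how the authors treated them is not given in the sources used here.

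Members were spread over arms and centres nearly as the available bases were. With arms taken as the outer 25% at each end, 154 members (51.2%, interval 45.4 to 56.9) lay on arms, and the distal bases put 53.6% there. The share was 43.1% for upstream regions, 43.6% for gene body regions and 55.1% for weaker candidates. By chromosome, arms held 43.1% of the members on III, 45.6% on V, 51.6% on I, 55.2% on II and 59.1% on IV. The numbers of members were 62 on I, 58 on II, 58 on III, 66 on IV and 57 on V. Per megabase of distal sequence this was 22.1, 16.3, 20.8, 13.2 and 11.1. The longest chromosomes, IV and V, thus had the fewest per megabase, although IV had the most by count. Members were not always separate: 9 neighbouring pairs lay within 1000 bp of each other and 4 pairs, or 8 members, were matched to the same replicate 1 candidate, as were 2 pairs in replicate 2.

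**Figure D4:**
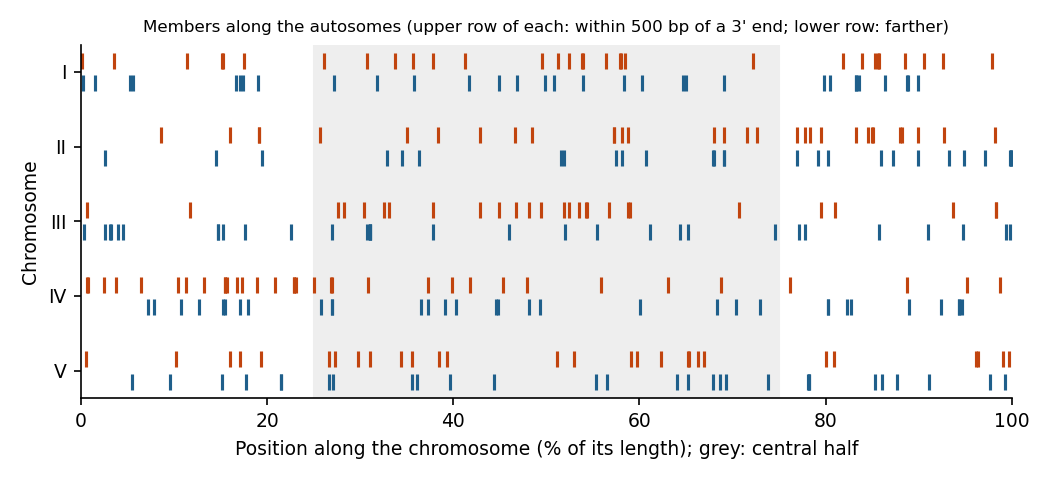
Each member as a tick along its autosome, in percent of chromosome length, with the 151 within 500 bp downstream of a 3' end in the upper row and the 150 others in the lower row of each chromosome. The central part is shaded, and 154 of the 301 ticks lie outside it.

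Annotated non-coding genes were as frequent at members as at weaker candidates. Of the members, 67 (22.3%) had a non-coding gene or pseudogene within 200 bp of the summit, against 23.2%. There were 33 with an ncRNA gene, 26 with a pseudogene, 3 each with a long intergenic, microRNA or piRNA gene, 1 with the antisense gene anr-3 and 0 with an rRNA gene. The microRNA genes were mir-51, mir-72 and mir-238. The mir-72 region had 46.9 in replicate 1 and 45.1 in replicate 2, and the mir-238 region had 32.8 in replicate 1 and 31.4 in replicate 2, so each lay well below the mir-51 region. The strongest pseudogene region, beside wago-2 and 375 bp from tent-5, had 66.1 in replicate 1 and 78.9 in replicate 2. The strongest piRNA region, 3617 bp from lip-1, lies near 21ur-8870 and 21ur-14312 and had 38.6 in replicate 1 and 49.5 in replicate 2.

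In the single replicates, most members were found, often at different ranks. A candidate summit within 200 bp was present in replicate 1 for 291 members, in replicate 2 for 290 and in both for 280 (93.0%, interval 89.5 to 95.6). The share in both was 94.9% for upstream regions, 91.9% for gene body regions and 25.5% for weaker distal candidates. Members were selected on the combined signal of these same replicates, so a high share follows in part from the rule. Signal ran from 14.7 through a median of 36.3 to 126 in replicate 1, and from 21.8 through 44.8 to 141 in replicate 2. Members near a 3' end had medians of 40.3 and 46.0 and the others 34.8 and 42.6, with ranges that overlap. There were 95 members (31.6%) among the first 2500 in both replicates, and 575 (31.2%) of the 1840 autosomal regions. Ranks differed by more than 4 times for 109 of the 280 members in both replicates and for 667 of the 1705 such autosomal regions (39.1%). Spearman's rho between the replicates was 0.10 over the 280, which were selected on the combined signal, and is given with no p. The widest gap was at the region 593 bp from ins-13, an insulin-like peptide gene, at rank 77 in replicate 1 with a signal of 103 and rank 21495 in replicate 2 with 21.8. The vig-1 region, 191 bp downstream of that gene, was at rank 185 in replicate 1 with 73.4 and rank 9532 in replicate 2 with 28.9. The atfs-1 region, 2558 bp from a gene of the mitochondrial stress response, went the other way, at rank 20643 in replicate 1 with 17.7 and rank 422 in replicate 2 with 68.3.

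**Figure D5:**
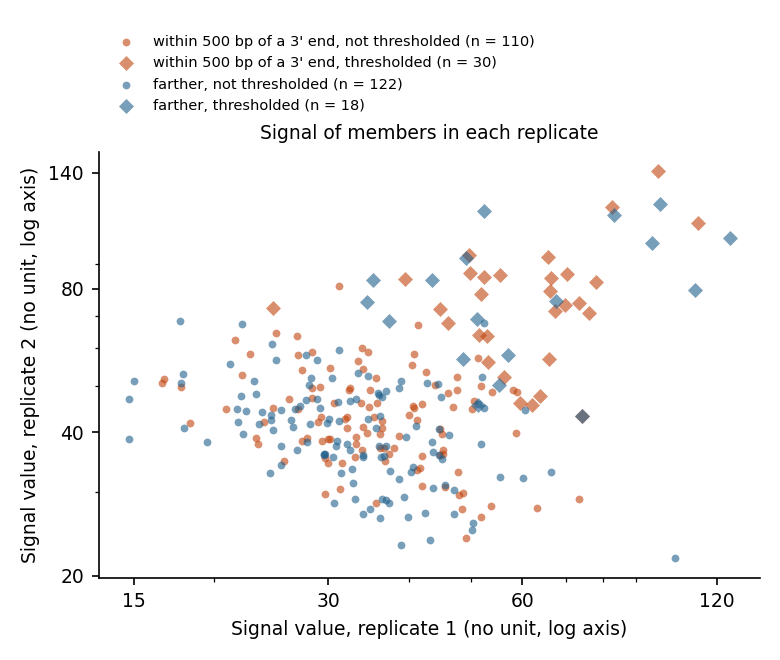
Signal value in replicate 2 against replicate 1 on log axes for the 280 members found in both, coloured by distance from a 3' end, with diamonds for members in the thresholded list. The 48 thresholded members have medians of 58.2 in replicate 1 and 75.3 in replicate 2, and reach down to 24.6 and 43.2. The point at 103 in replicate 1 and 21.8 in replicate 2 is the ins-13 region.

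The thresholded list, in which the authors kept regions that ranked reproducibly, held 48 of the members (15.9%, interval 12.0 to 20.6), beside 16.7% of all 1840 autosomal regions away from small RNA genes. The rule used the same signal, so nothing is read from that pair of values. Of the 48, 30 (62.5%) lay within 500 bp downstream of a 3' end and 27 (56.2%) on arms. At the edge of the rule, the weakest members were the regions near C08E8.10, mnk-1 and pptr-1, with combined signals of 65.2, 65.1 and 65.1. The first candidates left out were those near zfh-2, gmpr-1 and mml-1, at 65.0, 64.9 and 64.9. Those inside and outside therefore differ by a small fraction of the members' combined range, which runs from 65.1 through a median of 77.0 to 239.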

How the data were processed

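The authors deposited 4 lists of regions in ce11, namely candidate regions for replicate 1, replicate 2 and both together, each called against a control, and a thresholded list made with the irreproducible discovery rate, per the notes deposited with the samples. Each region's signal value is a score given by the authors' caller, with no stated unit. The lists also hold a −log10 q as the authors deposited it, which was not used to choose or rank regions. No source used here names the caller, the aligner or their versions. Read depth and the control were not analysed here, so a missing region was not detectable at an unknown depth. The nuclear candidates numbered 29984 for replicate 1, 23398 for replicate 2 and 28426 for both, and the thresholded regions 620.

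Gene bodies and ends came from Ensembl release 115, with names that it lacked taken from RefSeq by WormBase identifier. The sequence and soft-masking came from the RefSeq WBcel235 assembly. Python 3.11.15 with pandas 2.3.3, numpy 2.4.6 and scipy 1.17.1 was used, and BLAST+ 2.17.0 for further copies and for likeness to tRNA genes and tRNA pseudogenes (E value at most 1e-05). Words were searched on both strands of the 100 bp to each side of a summit. The place rule and the word search were checked on simulated summits and sequences. The regions named were drawn from the 20 with the highest signal, the 5 farthest from genes, 3 on each side of the signal limit, the 3 with the highest signal for each non-coding biotype and word, and the 3 furthest apart in rank; others named beyond these, such as members of a gene family, of a tRNA-like set or with many copies, were chosen after their values were seen. The members, lists and words were chosen with earlier results of these data known. Other signal limits, distances, windows and repeat definitions, and each replicate left out, were tried as alternatives.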

Additional observations from a re-analysis of the deposited data

How the results depend on the processing

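The number of members was 134 when only the stronger part of the candidates was kept, 651 with the 5000 strongest and 48 with thresholded members only. With these 3 choices the share within 500 bp of a 3' end was 58.2%, 39.0% and 62.5%, the median distance to a gene body 351, 1021 and 303 bp, and the share found in both replicates 98.5%, 82.8% and 100%. The thresholded share was 35.8% and 7.37% with the first and second of them, and repeats lay under 33.3% of the thresholded summits. With no non-coding gene within 200 bp, 56.4% were near a 3' end. With the list of replicate 1, and then that of replicate 2, in place of the combined one, the share found in both replicates was 63.4% and 69.1%, and the share near a 3' end 46.0% and 42.6%. A distance of 200 or 1000 bp for the 3' end gave 28.2% and 59.1%. Wider arms put 67.8% on arms. Repeats were 18.6% when most of the window around the summit, or of a narrower one, had to be masked, and 9.63% when a further copy was required. Matching replicate summits within 100 or 500 bp put 74.4% and 95.7% in both. A narrower window lowered the share to 18.3% for GAGAGA, to 4.98% for its run of 8 and to 8.64% for GACGCAG, and leaving out soft-masked bases gave 23.3%, 1.99% and 7.64%. A substitution, allowed only for words of 8 or more letters, raised the run of 8 to 30.2% and the B box form to 31.9%. The causes were not tested. With 2 replicates, 1 condition and no read counts, neither the spread between worms nor the depth behind a region could be given, and the distance limit, the GA and AATAAA words and the tRNA likeness were added after seeing the data.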
